A study of Homo sapiens with 10 samples.

Results

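Epithelial to mesenchymal transition (EMT) is the programme in which an epithelial cell loosens its junctions and takes on the cytoskeleton and matrix of a mesenchymal cell. Mesenchymal marker genes and the transcription factors that drive the programme were followed in HCT116 cells, a human colorectal carcinoma line, with and without CD276 (B7-H3), a surface protein of the B7 family. The 10 genes were chosen by name, and each was found once among the 58050 Ensembl gene identifiers of the TPM table. They were the markers VIM, FN1, CDH2, SPARC and TGFBI and the transcription factors SNAI1, SNAI2, TWIST1, ZEB1 and ZEB2. The 10 libraries of polyadenylated RNA came from 5 HCT116-WT and 5 HCT116-CD276KO cultures, both grown in McCoy's medium with serum. The knockout was made by electroporation of Cas9 with a guide RNA against CD276, and the labels name no other allele. All HCT116-CD276KO cultures came from 1 single cell clone, so that effects of the knockout and features of this clone cannot be told apart. The protocol names a scrambled guide RNA as control, while the labels call the control libraries WT and do not say whether they had received it.

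The transcription factors of this group bind E-box motifs, short DNA sites found in promoters of epithelial genes such as CDH1, and repress those genes. SNAI1 and SNAI2 are zinc finger repressors, ZEB1 and ZEB2 carry zinc fingers on both sides of a homeodomain, and TWIST1 is a basic helix-loop-helix factor. VIM (vimentin) is the intermediate filament protein of mesenchymal cells, CDH2 is N-cadherin, FN1 is fibronectin, and SPARC and TGFBI are secreted matrix proteins. ZEB1 and ZEB2 are held down in epithelial cells by the miR-200 microRNAs, and they repress those microRNAs in turn.

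Levels are given as transcripts per 1000000 transcripts (TPM), which corrects for transcript length, so that they can be compared between genes. As a working definition, a gene under 0.1 TPM in every library was called silent. The 13581 genes that averaged 1 TPM or more were tested with limma on log2(TPM + 1), and a gene was called when its p-value, adjusted over all of them, was under 0.05. Of the 10 genes, 4 were tested, 5 were low, with a mean under 1 TPM, and CDH2 was silent. For low genes, where no adjusted p-value was obtained from that fit, libraries were permuted exactly between the groups (two-sided), and the smallest p-value this permutation test can give is 0.00794. TPM do not keep the number of reads behind a value, and the study gives depth only as a mean and variation over all libraries. The cultures were the only replicates. In bulk RNA, fewer cells that express a gene and less RNA per cell cannot be told apart.

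CD276 itself was at 49.3, 42.02, 53.61, 38.08 and 43.27 TPM in HCT116-WT replicates 1 to 5 and at 4.4, 7.42, 5.79, 4.79 and 4.89 TPM in replicates 1 to 5 of HCT116-CD276KO. For each library, the deviation of each tested gene's log2(TPM + 1) from its mean over the 10 libraries was correlated with transcript length. This Spearman correlation over genes was between -0.09 and 0.43 in HCT116-WT and between -0.52 and 0.32 in HCT116-CD276KO libraries. With GC content in place of length it was between -0.343 and 0.607 and between -0.276 and 0.484. Colorectal epithelial markers were present in part. KRT8, KRT18, KRT19, EPCAM, CDH1 and CDX2 had means over 1 TPM, whereas CDX1 was listed at 0 TPM throughout, VIL1 did not exceed 0.05 TPM, KRT20 not 0.9 TPM and LGR5 not 0.17 TPM. Of 10 fibroblast markers 7 were silent, with LUM, FAP and POSTN at 0 TPM in all libraries, and their summed level was 6.02 to 8.99 TPM in HCT116-WT and 4.54 to 7.52 TPM in HCT116-CD276KO libraries, most of it from COL1A1. Endothelial markers summed to at most 0.66 TPM. Leukocyte and macrophage markers summed to 9.28 to 15.52 TPM in HCT116-WT and 6.25 to 13.19 TPM in HCT116-CD276KO libraries, nearly all from CD68, at means of 13.2 and 9.58 TPM (limma, adjusted p-value 0.202), while PTPRC did not exceed 0.13 TPM.

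DNA around transcription starts is shown for VIM, which was called higher in HCT116-CD276KO cells, for ZEB1, and for CLDN7, an epithelial gene that was called lower. Each window is the RefSeq sequence on GRCh38.p14 from 250 bases before to 50 bases after a start, 5′ to 3′ on the strand of the gene. Capitals mark 1 form of the E-box, CAGGTG or, for the same site on the other strand, CACCTG. The VIM window is chr10:17227991-17228290 on the plus strand and holds none. The ZEB1 window, 1 of 7 listed for this gene and the one with the most sites, is chr10:31318966-31319265 on the plus strand and holds 3. The CLDN7 window is chr17:7262429-7262728 on the minus strand and holds 5, while the other CLDN7 window listed holds none.
VIM: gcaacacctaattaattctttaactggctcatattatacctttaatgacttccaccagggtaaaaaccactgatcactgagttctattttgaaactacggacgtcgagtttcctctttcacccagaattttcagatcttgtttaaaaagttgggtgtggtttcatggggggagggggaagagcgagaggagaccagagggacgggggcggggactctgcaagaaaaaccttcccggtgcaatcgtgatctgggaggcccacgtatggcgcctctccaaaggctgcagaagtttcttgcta
ZEB1: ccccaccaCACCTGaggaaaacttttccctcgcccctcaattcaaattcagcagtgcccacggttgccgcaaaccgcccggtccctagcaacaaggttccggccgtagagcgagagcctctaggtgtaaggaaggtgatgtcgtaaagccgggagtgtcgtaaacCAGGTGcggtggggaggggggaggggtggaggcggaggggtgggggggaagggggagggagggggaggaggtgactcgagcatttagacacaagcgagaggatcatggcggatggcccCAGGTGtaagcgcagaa
CLDN7: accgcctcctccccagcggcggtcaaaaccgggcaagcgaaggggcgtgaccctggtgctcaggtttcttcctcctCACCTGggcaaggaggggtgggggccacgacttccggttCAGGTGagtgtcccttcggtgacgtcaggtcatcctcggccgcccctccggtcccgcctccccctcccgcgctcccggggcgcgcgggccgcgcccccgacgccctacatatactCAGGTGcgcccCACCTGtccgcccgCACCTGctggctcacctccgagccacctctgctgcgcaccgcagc

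Windows of 7 of the 10 genes were matched. Those of SNAI1, SNAI2 and TWIST1 were not analysed here. Only the CAGGTG form of the E-box was searched for, on either strand, and other forms were not counted. This form was found for 1 of these 7 genes, ZEB1, and in none of the windows of VIM, FN1, CDH2, ZEB2, SPARC and TGFBI. Over all 27305 genes with a window, 24.1% had at least 1 site. Among 27 epithelial genes described further below, 14 were matched and 12 of them had a site. CDH1 was not among those matched. The list holds targets of the EMT factors by choice, so that its share is not a test against that of all genes. Per window the shares were 20.6% of all 35116 windows and 61.9% of 21 windows of the epithelial genes. Among epithelial genes with a site, CLDN7, JUP, PATJ, RAB25 and ELF3 were called lower in HCT116-CD276KO cells. CRB3, with 5 sites like the CLDN7 window shown, was not called, nor were CLDN3, OCLN, DSP and CDS1. KRT8 and CLDN4, without a site in their windows, were called lower. Whether sites and changes go together was not tested. A match of letters is a description and not a bound site.

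The microRNAs miR-200c and miR-141, which target ZEB1 and ZEB2, lie on chromosome 12 inside the host transcript MIR200CHG. Their mature forms are shown from RefSeq with the seed, bases 2 to 8, in capitals, where the seeds differ at 1 base.
miR-200c-3p: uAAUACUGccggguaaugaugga
miR-141-3p: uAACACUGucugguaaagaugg

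By mean level over all libraries the order was SNAI1, VIM, FN1, ZEB1, TWIST1, SPARC, SNAI2, TGFBI, ZEB2 and CDH2. SNAI1, at a mean of 9.02 TPM, ranked 8658 among 30818 genes above 0 TPM. SNAI1 lay above VIM in all libraries of both groups. The ranges of VIM and FN1 overlapped in HCT116-WT and were separate in HCT116-CD276KO libraries. ZEB1 and TWIST1 were separate in both groups, and from TWIST1 downwards the ranges of neighbours overlapped in at least 1 group.

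VIM (ENSG00000026025, chromosome 10 of hg38 from 17228241 to 17237593, plus strand) was the only 1 of the 4 tested genes that was called. It was at 4.42, 3.97, 4.32, 3.98 and 4.43 TPM in HCT116-WT replicates 1 to 5. In HCT116-CD276KO replicates 1 to 5 it was at 6.7, 6.42, 6.97, 7.07 and 6.85 TPM. All HCT116-CD276KO libraries were higher than every HCT116-WT library, and the spread within each group was small against the gap. The means were 4.22 ± 0.23 TPM and 6.80 ± 0.25 TPM (SD, n = 5), so that the HCT116-CD276KO mean was 161% of the HCT116-WT mean. The log2 fold change was 0.58 with a standard error of 0.07 (limma, adjusted p-value 0.000656). Of all 13581 genes tested, 4.87% were called, 0.781% higher and 4.09% lower. By this count 1 of the 4 genes was called higher and 0 lower, with 0 lower also at an unadjusted p-value under 0.05. The rise of VIM was called in each of the alternative fits. Its log2 fold change lay between 0.56 and 0.70, and its adjusted p-value was never over 0.0163.

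VIM-AS1, a non-coding transcript on the minus strand (chromosome 10 from 17214239 to 17230018), runs across the start of VIM. It was at 0.57, 0.57, 0.37, 0.37 and 0.37 TPM in HCT116-WT and at 0.79, 0.83, 0.9, 1.02 and 0.92 TPM in replicates 1 to 5 of HCT116-CD276KO. The groups did not overlap, and as for VIM the HCT116-CD276KO libraries were the higher ones (exact permutation p = 0.00794). When all genes above 0 TPM were fitted, VIM-AS1 was called higher at a log2 fold change of 0.39 (limma, adjusted p-value 0.0207). The libraries were strand-specific, but whether strand was used in quantification is not given in the sources used here, so reads of both transcripts may not be fully separated.

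**Figure D1:**
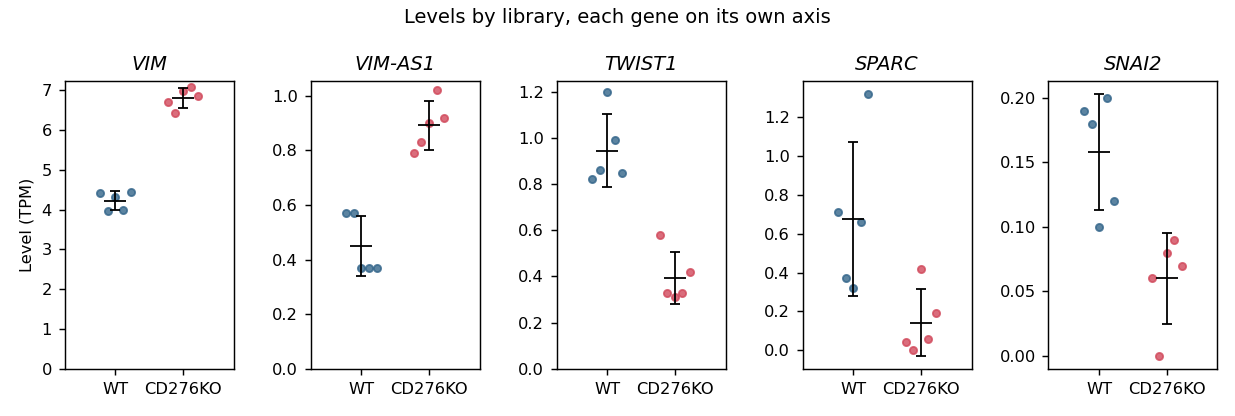
TPM of VIM, VIM-AS1, TWIST1, SPARC and SNAI2 by library, each on its own axis, with mean and SD in black. VIM and VIM-AS1 were higher in all HCT116-CD276KO libraries, TWIST1 and SNAI2 were lower in all of them, and SPARC overlapped through HCT116-CD276KO replicate 3 at 0.42 TPM.

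TWIST1 (ENSG00000122691, chromosome 7 from 19020991 to 19117636, minus strand) went the other way from VIM, at a low level. It was at 0.82, 0.86, 1.2, 0.99 and 0.85 TPM in HCT116-WT replicates 1 to 5. In HCT116-CD276KO replicates 1 to 5 it was at 0.58, 0.33, 0.31, 0.33 and 0.42 TPM. Each HCT116-CD276KO library was lower than each HCT116-WT library. The means were 0.944 ± 0.157 TPM and 0.394 ± 0.112 TPM (SD, n = 5), which left 41.7% of the HCT116-WT level (exact permutation p = 0.00794, lower in 5 of 5 libraries). With all genes above 0 TPM in the fit, TWIST1 was called lower (log2 fold change -0.48, limma, adjusted p-value 0.0134). The same difference was -1.26 as the log2 ratio of the means, since a pseudocount of 1 TPM compresses changes at this level.

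SNAI2 (ENSG00000019549, chromosome 8 from 48917598 to 48921740, minus strand), the paralogue of SNAI1 also known as SLUG, was close to the floor. It was at 0.19, 0.18, 0.1, 0.2 and 0.12 TPM in HCT116-WT and at 0.06, 0, 0.08, 0.09 and 0.07 TPM in replicates 1 to 5 of HCT116-CD276KO. The lowest HCT116-WT and the highest HCT116-CD276KO library differed by 1 step of the table, 0.01 TPM. The groups thus did not overlap (exact permutation p = 0.00794), but in the fit of all genes above 0 TPM SNAI2 was not called (limma, adjusted p-value 0.104).

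SPARC (ENSG00000113140, chromosome 5 from 151661096 to 151686975, minus strand) was at 0.71, 0.37, 0.32, 0.66 and 1.32 TPM in HCT116-WT replicates 1 to 5. In HCT116-CD276KO replicates 1 to 5 it was at 0.04, 0, 0.42, 0.06 and 0.19 TPM. Most HCT116-CD276KO libraries were lower, but replicate 3 lay within the HCT116-WT range. The means were 0.676 ± 0.399 TPM and 0.142 ± 0.171 TPM (SD, n = 5, exact permutation p = 0.0238). SPARC was not called among all genes above 0 TPM (limma, adjusted p-value 0.157). Groups without overlap were found for 1 of the 4 tested genes, VIM, against 7.61% of all genes tested. Among the 5 low genes they were found for 2, TWIST1 and SNAI2, both lower. Of all 11317 low genes, with a mean under 1 TPM but at least 0.1 TPM in some library, 2.17% had groups without overlap, and 1.66% were lower.

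SNAI1 (ENSG00000124216, chromosome 20 from 49982980 to 49988886, plus strand) was at 9.54, 8.46, 10.28, 8.65 and 8.36 TPM in HCT116-WT replicates 1 to 5. In HCT116-CD276KO replicates 1 to 5 it was at 9.23, 8.87, 9.19, 8.82 and 8.75 TPM. All HCT116-CD276KO values fell inside the HCT116-WT range. The log2 fold change was -0.01 with a standard error of 0.07 (limma, adjusted p-value 0.952), and its sign turned with scaling. Any difference in the most abundant EMT factor of the 10 was within the spread of the cultures.

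ZEB1 (ENSG00000148516, chromosome 10 from 31318495 to 31529814, plus strand) was at 1.98, 2.13, 1.83, 1.86 and 1.88 TPM in HCT116-WT replicates 1 to 5. In HCT116-CD276KO replicates 1 to 5 it was at 3.45, 1.78, 1.74, 2.49 and 2.71 TPM. Replicates 1, 4 and 5 were above every HCT116-WT library, and replicates 2 and 3 were below all of them. The log2 fold change was 0.20 with a standard error of 0.14 (limma, adjusted p-value 0.388). Replicates 2 and 3 were also the HCT116-CD276KO libraries whose deviations from the gene means fell most with transcript length, with correlations of -0.52 and -0.49. Their correlations with GC content were 0.484 and 0.023, and the canonical ZEB1 transcript has 5937 bases. Whether these trends gave the low ZEB1 values was not tested. Once each library's trend with length and GC content was removed, ZEB1 was 1.36 to 1.64 in HCT116-WT and 1.70 to 2.06 in HCT116-CD276KO libraries on the log2(TPM + 1) scale. The groups then no longer overlapped, and ZEB1 was called higher at a log2 fold change of 0.37 (limma, adjusted p-value 0.0314). On the values as deposited, and under the other alternatives, it was not called.

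FN1 (ENSG00000115414, chromosome 2 from 215360440 to 215436073, minus strand) varied between libraries in a like way in HCT116-CD276KO cells. It was at 2.54, 4.06, 2.6, 2.97 and 2.64 TPM in HCT116-WT and at 4.4, 2.24, 2.04, 3.04 and 3.92 TPM in replicates 1 to 5 of HCT116-CD276KO. HCT116-CD276KO replicates 2 and 3 were again lowest and replicate 1 highest, and the groups overlapped. The log2 fold change was 0.04 with a standard error of 0.17 (limma, adjusted p-value 0.913). After removal of the length and GC trends it was 0.27 with an adjusted p-value of 0.175, and the groups still overlapped.

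**Figure D2:**
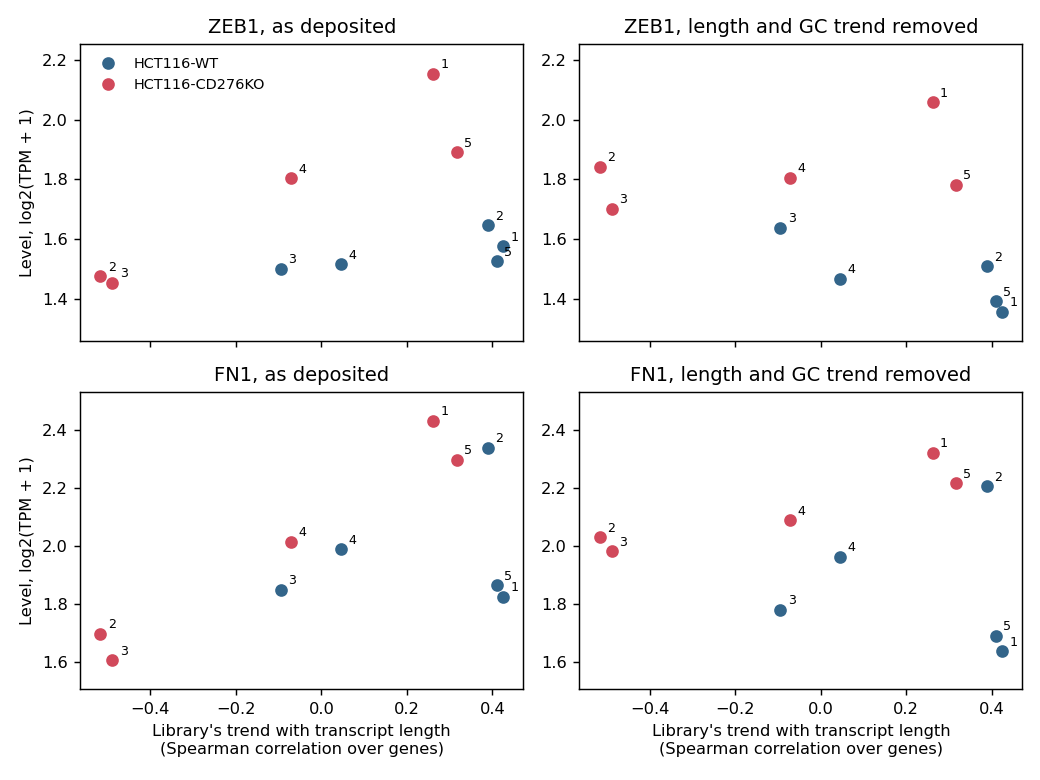
ZEB1 (top) and FN1 (bottom) on the log2(TPM + 1) scale, as deposited (left) and with length and GC trends removed (right). The horizontal axis is each library's Spearman correlation, over genes, of the deviations from the gene means with transcript length. Numbers are replicates. As deposited, HCT116-CD276KO replicates 2 and 3 (red) lie at the bottom left, and after removal all HCT116-CD276KO libraries lie above HCT116-WT (blue) for ZEB1, 1.70 and up against 1.64 and below, but not for FN1.

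TGFBI, ZEB2 and CDH2 were at or near the floor, and none passed the exact permutation test. TGFBI (ENSG00000120708, chromosome 5 from 136028988 to 136063818, plus strand) was at 0.04, 0.27, 0.14, 0.08 and 0 TPM in HCT116-WT and at 0.03, 0, 0.12, 0.03 and 0.04 TPM in replicates 1 to 5 of HCT116-CD276KO (exact permutation p = 0.286). ZEB2 (ENSG00000169554, chromosome 2 from 144364364 to 144521057, minus strand) was at 0, 0.03, 0.01, 0.11 and 0 TPM in HCT116-WT and at 0.03, 0.03, 0.05, 0.06 and 0.15 TPM in replicates 1 to 5 of HCT116-CD276KO (exact permutation p = 0.310). So of the ZEB pair ZEB1 was expressed and ZEB2 was nearly off, and its antisense transcript ZEB2-AS1 was listed at 0 TPM in all libraries. CDH2 (ENSG00000170558, chromosome 18 from 27932879 to 28177946, minus strand) was at 0, 0.01, 0, 0 and 0.02 TPM in HCT116-WT and at 0, 0, 0, 0 and 0.01 TPM in replicates 1 to 5 of HCT116-CD276KO. N-cadherin mRNA was therefore silent with and without CD276, at most 0.02 TPM.

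CDH1 (E-cadherin), the junction protein whose loss is the classical sign of EMT and whose gene the factors above repress, was set beside them. It was at 47.9, 44.52, 43.25, 34.59 and 43.42 TPM in HCT116-WT replicates 1 to 5. In HCT116-CD276KO replicates 1 to 5 it was at 29.2, 14.31, 16.56, 19.97 and 21.81 TPM. The groups did not overlap, and 47.7% of the HCT116-WT mean was left. The log2 fold change was -1.07 with a standard error of 0.16 (limma, adjusted p-value 0.00311), and over all alternatives it lay between -1.20 and -0.90 with adjusted p-values up to 0.0132. CDH1 was lowest in HCT116-CD276KO replicates 2 and 3, the libraries whose deviations from the gene means fell most with length. Whether this trend lowered CDH1 there was not tested. The log2 fold change of CDH1 was -0.90 with the length and GC trends removed.

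VIM thus stood at 8.92 to 11.5% of the CDH1 level in HCT116-WT libraries and at 22.9 to 44.9% in HCT116-CD276KO libraries. In every library CDH1 remained the more abundant transcript. Against the keratin gene KRT8, VIM stood at 0.1816 to 0.2187% in HCT116-WT and at 0.3675 to 0.4795% in HCT116-CD276KO libraries. ZEB1 amounted to 4.13, 4.78, 4.23, 5.38 and 4.33% of CDH1 in HCT116-WT and to 11.8, 12.4, 10.5, 12.5 and 12.4% in HCT116-CD276KO replicates 1 to 5. These ratios were formed after the values had been seen, and were not tested.

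**Figure D3:**
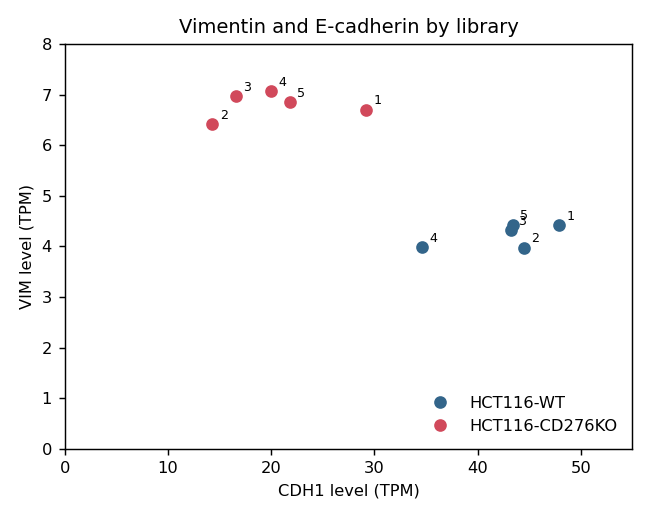
TPM of VIM (vertical) against TPM of CDH1 (horizontal) in each library, with replicate numbers. HCT116-WT libraries (blue) lie at 34.59 TPM or more of CDH1 and 4.43 TPM or less of VIM, and HCT116-CD276KO libraries (red) at 29.2 TPM or less of CDH1 and 6.42 TPM or more of VIM.

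Of 27 epithelial genes, among them targets of the EMT factors and regulators that oppose them, 26 were tested. The list was chosen with earlier results of these data known, so that its counts are a description and not a test. In HCT116-CD276KO cells 15 of the 26 were called lower and 0 higher, against 4.09% and 0.781% of all genes tested. At an unadjusted p-value under 0.05 (limma) 22 were lower and 0 higher, and the share over all genes was not obtained for this threshold. The median log2 fold change of the 26 was -0.45, against -0.09 over all genes tested. Of the 26, 25 lay below 0, as did 68.1% of all genes tested. The largest falls among the called genes were those of MAL2, a membrane trafficking protein, at -4.68, CDH1 at -1.07, GRHL2, a transcription factor that maintains epithelial identity, at -0.97, the claudins CLDN4 at -0.76 and CLDN7 at -0.59, and the plakoglobin gene JUP at -0.52 on the log2(TPM + 1) scale. The most abundant, KRT8, KRT19 and KRT18, which encode keratins of simple epithelia, fell by 0.42, 0.29 and 0.39 on the log2(TPM + 1) scale. With median-of-ratios scaling 10 of the 26 were called lower, without the keratins, and with quantile normalization 14. The 11 other genes were not called, ESRP1 at -0.57 (adjusted p-value 0.0734) and OCLN at -0.52 (adjusted p-value 0.0579) being close to the threshold.

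Of 38 further mesenchymal matrix and cytoskeletal genes, 12 were silent, 6 low and 20 tested, and 3 were called higher and 1 lower. Over all genes tested, 0.781% were called higher and 4.09% lower. At an unadjusted p-value under 0.05 (limma), 5 of the 20 were higher and 7 lower. The share over all genes was not obtained for this threshold. Groups without overlap were found for 3 higher and 3 lower genes, against 7.61% of all genes tested in either direction. The median log2 fold change of the 20 was -0.11, near that of all genes. S100A4, a calcium-binding protein also called fibroblast-specific protein, rose from 159 ± 10.5 to 227 ± 14.3 TPM (SD, n = 5), with a log2 fold change of 0.51 (limma, adjusted p-value 0.000792). CCN1 rose from 14.1 ± 1.18 to 21.0 ± 2.22 TPM and CCN2 from 2.26 ± 0.34 to 4.00 ± 0.76 TPM (SD, n = 5), with adjusted p-values of 0.00423 and 0.0153 from limma. CCN1 and CCN2 encode matricellular proteins that are well-known YAP targets. FBLN1 (fibulin 1) was lower, by a log2 fold change of -0.41 (limma, adjusted p-value 0.0272), a call that was lost on omission of any 1 of 7 of the 10 libraries, with an adjusted p-value of at most 0.0845 over all alternatives. The most abundant of the list, CD44 and TPM2, had log2 fold changes of -0.36 and 0.19 and were not called. The collagens COL1A2 and COL3A1 and the mesenchymal cadherin CDH11 were silent.

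Among 18 further transcription factors tied to EMT, 7 were silent, among them TWIST2, PRRX1, FOXC2 and GSC, 3 were low and 8 were tested. At an unadjusted p-value under 0.05 (limma), 3 of the 8 were lower and 0 higher. The share over all genes was not obtained for this threshold. Over all genes tested, 4.09% were called lower and 0.781% higher, and 68.1% had a log2 fold change below 0. SOX9, a factor of intestinal progenitors, was the only gene called, falling from 53.3 ± 2.07 to 38.2 ± 5.29 TPM (SD, n = 5), with a log2 fold change of -0.48 (limma, adjusted p-value 0.0095). The most abundant, HMGA2, TCF3 and TCF12, had log2 fold changes of -0.12, -0.21 and -0.53 and were not called. FOXQ1, named after its values were seen, was between 0.07 and 0.15 TPM in HCT116-WT and between 0 and 0.04 TPM in HCT116-CD276KO libraries (exact permutation p = 0.00794). Its adjusted p-value was 0.0375 when all genes above 0 TPM were fitted with limma.

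Upstream and partner genes gave no calls. Of all genes tested, 4.87% were called, and 68.1% had a log2 fold change below 0. TGF-beta signalling is a main inducer of EMT. Of 15 of its genes, which encode ligands, receptors and SMADs with the binding protein LTBP1 and the inhibitors SKI, SKIL and TGIF1, 12 were tested and 0 were called with limma, while 3 were lower and 0 higher at an unadjusted p-value under 0.05. The corepressor TGIF1 and the signal transducers SMAD2 and SMAD4, the most abundant, had log2 fold changes of -0.23, -0.16 and -0.20. Of 18 corepressors and stability regulators of the EMT factors 17 were tested and 0 were called, with 3 lower and 0 higher at an unadjusted p-value under 0.05. For both lists, the share over all genes was not obtained at the unadjusted threshold. HDAC1, CSNK2A1 and HDAC2, the most abundant of these, had log2 fold changes of 0.03, -0.21 and -0.02.

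MIR200CHG, the host of miR-200c and miR-141 shown above, was at 3.18, 1.45, 4.66, 4.18 and 2.19 TPM in HCT116-WT and at 3.49, 3.78, 3.04, 4.09 and 1.76 TPM in replicates 1 to 5 of HCT116-CD276KO. Values varied by library within both groups, which overlapped widely (log2 fold change 0.07, limma, adjusted p-value 0.876). ZEB1-AS1, which overlaps the start of ZEB1 on the opposite strand, had means of 2.58 ± 0.78 and 2.24 ± 0.40 TPM (SD, n = 5) and a log2 fold change of -0.12 (limma, adjusted p-value 0.663). MIR200CHG and ZEB1-AS1 were the 2 tested of 6 antisense and host transcripts, with 0 called and 0 at an unadjusted p-value under 0.05. Mature microRNAs were not measured in these polyadenylated RNA libraries.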

How the data were processed

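The authors made strand-specific libraries of polyadenylated RNA and read them as single reads. The submitters' processing notes name hg38, STAR 2.5.2b, RSEM 1.3.0 and featureCounts 1.5.1. The values used here are the TPM that the authors deposited, 1 column per library with 2 decimals, corrected for length and scaled alike in all libraries. Which program gave them is not given in the sources used here. The study gives depth only as a mean and variation over all libraries, and TPM keep no counts, so no counting interval is given. Symbols were matched for 56947 of 58050 identifiers. Positions, canonical transcript lengths and GC content came from GENCODE 44 on hg38, an annotation newer than that of the authors.

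Genes that averaged 1 TPM or more were fitted in limma 3.58.1 (R 4.3.3) on log2(TPM + 1) over all 10 libraries, with empirical Bayes moderation, a variance trend and p-values adjusted by the Benjamini-Hochberg method over every tested gene. Fold changes on this scale understate changes of low genes. Two-sided exact permutation tests were run gene by gene on log2(TPM + 1) and not adjusted for the number of genes. The fit was tested on simulated data. The settings also tried were all genes above 0 TPM, a pseudocount of 0.1, a mean of at least 5 TPM, median-of-ratios scaling, quantile normalization, robust variances, the replicate number as a block, each library left out, ratios of means, and removal of each library's trend with transcript length and GC content by local regression (span 0.3). Members, lists and alternatives were chosen with earlier results of these data known. From each further list, up to 6 called genes by size of change and the 3 most abundant were named, and others named were chosen after their values were seen. P-values measure the spread between cultures of 1 clone and 1 parental line. No pair of libraries held identical values.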

Additional observations from a re-analysis of the deposited data

Results flagged for a closer look

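In each group of 5 libraries, for the 10 genes and CD276, the distance of the highest or lowest value from its neighbour was taken as a share of the group's range. In 4 of 22 groups it was over the limit of 0.71 that chance passes in about 1 of 20 groups. FN1 was at 4.06 TPM in HCT116-WT replicate 2, against 2.97 TPM or less in the others, a share of 0.717. ZEB2 was at 0.11 TPM in HCT116-WT replicate 4, a share of 0.727, and at 0.15 TPM in HCT116-CD276KO replicate 5, a share of 0.75. CDH2 was at 0.01 TPM in HCT116-CD276KO replicate 5 and at 0 TPM in the other 4 libraries, a share of 1. The values of ZEB2 and CDH2 lie within a few steps of 0.01 TPM of the floor.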

How the results depend on the processing

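VIM was called higher and CD276 lower under every alternative run. ZEB1 was called only with length and GC trends removed, at a log2 fold change of 0.37. The sign of SNAI1, never called, turned to 0.0797 with median-of-ratios scaling, 0.13 with quantile normalization and 0.0160 with length and GC trends removed, and lay between -0.0339 and 0.0334 with 1 library left out. FN1, never called, lay between -0.0695 and 0.138 with 1 library left out. ZEB2 passed the exact permutation test (p = 0.0476) without HCT116-WT replicate 4. SNAI2 and SPARC, under 0.05 by permutation, were not called when all genes above 0 TPM were fitted. There 2 of the 10 genes were called, as also after removal of length and GC trends, though not the same 2: TWIST1 and VIM against VIM and ZEB1.

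With length and GC trends removed 1287 genes were called in place of 662, and 3 further EMT factors in place of 1. Of the further mesenchymal genes 9 were called in place of 4, with 5 higher and 4 lower. Of the TGF-beta list 1 gene, TGFBR2, was called in place of 0. With all genes above 0 TPM, 2 further EMT factors and 1 antisense transcript, VIM-AS1, were called. With 1 library left out, the number over all genes ranged from 343 (without HCT116-WT replicate 5) to 857 (without HCT116-CD276KO replicate 1) and that of the TGF-beta list from 0 to 2. It was 345, 376 and 421 without HCT116-WT replicates 1, 2 and 4, and 407 and 375 without HCT116-CD276KO replicates 3 and 4. For these changes the cause was not tested. Lower genes made up 84.0% of calls on the values as deposited, 67.1% with median-of-ratios scaling, 60.3% with quantile normalization and 58.8% with length and GC trends removed. With the replicate block 378 genes were called, and VIM was still called. The labels do not say whether same-numbered cultures were paired, and the main fit did not treat them as pairs. Deviations of same-numbered libraries from their group means correlated between -0.18 and 0.12 over genes. At levels under 1 TPM the table's precision of 0.01 TPM limits what can be seen, and TPM do not keep the reads behind a value.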
